A study of Mus musculus with 17 samples.

Results

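In epidermis of mice with Utx deleted, peaks of an antibody against UTX were set against peaks of the histone mark H3K27ac from the same genotype. The members are all peaks of the 2 lists of that genotype, 213 for the UTX antibody and 48 for H3K27ac, which together make 261 of the 2948 peaks in the series. Peaks of the 2 lists that overlapped by at least 1 bp were joined into 1 position, and the 225 positions that resulted hold peaks of both antibodies, of the UTX antibody only or of H3K27ac only. The Utx-deleted mice were females labelled Cre+; Utx fl/fl, in which Krt14-Cre removes the floxed Kdm6a (Utx) gene in keratin-14 expressing tissues. The control mice were females labelled Cre-; Utx fl/fl, so that both genotypes carry the floxed alleles and differ by Cre.

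The study mapped UTX, H3K27ac and input DNA by chromatin immunoprecipitation and sequencing (ChIP-seq) on crosslinked single cells of the epidermis. The Utx-deleted genotype has 3 UTX, 3 H3K27ac and 3 input libraries, and the control genotype has 3 UTX, 2 H3K27ac and 3 input libraries in the labels. Their protocol states 3 for every group, so whether the control H3K27ac list merges another library is not known. The libraries of both antibodies in the Utx-deleted genotype carry the same 3 numbers in their titles, which, if a number is an animal, makes the 2 lists come from the same animals. Each peak list was called on the merged libraries of its group and gives positions alone, so a peak has no height, no value per animal and no replicate error, and read depth per library is unknown. Cells of the epidermis that do not express keratin 14, such as immune cells and melanocytes, are not targeted by this Cre and keep the floxed gene. In merged lists from a mixed suspension, fewer cells of a type and less signal per cell cannot be told apart.

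UTX removes methyl groups from lysine 27 of histone H3 and is a subunit of the COMPASS-like complexes that act at enhancers. H3K27ac marks the nucleosomes of active promoters and enhancers, so a UTX peak on an H3K27ac peak is the pairing usually read as UTX at an active regulatory element. Zinc finger genes named Zfp, many of which encode KRAB zinc finger repressors of transposable elements, lie in large clusters of related copies in the mouse genome, where short reads can be hard to place. After deletion a UTX peak is a peak of the UTX antibody, whether or not the protein is present. Kdm6a itself held 0 UTX and 0 H3K27ac peaks, and a peak list does not measure its expression, so the deletion could not be checked from these files.

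No genome sequence was used, so the bases under the peaks are not shown. The sequences below are promoter windows, from 250 bases before to 50 after a transcript's start (RefSeq, GRCm38.p6), of genes with peaks in or near them, printed 5′ to 3′ on the gene's strand. A gene can have several starts, and some of the starts printed lie inside the gene's annotated extent, 48240 bp from its outer end at Rex2, 25265 bp at 4930467E23Rik and 523 bp at Gm21119. The first set is from the cluster on chromosome 4, which holds 14 of the 33 positions with both antibodies, and was chosen because these windows are among the most alike there. The windows are those of Zfp600 (chr4:146156577-146156876, plus strand), Rex2 (chr4:147021600-147021899, plus strand) and Zfp979 (chr4:147642459-147642758, minus strand), and capitals mark the longest run common to them, of 93 bases.
Zfp600: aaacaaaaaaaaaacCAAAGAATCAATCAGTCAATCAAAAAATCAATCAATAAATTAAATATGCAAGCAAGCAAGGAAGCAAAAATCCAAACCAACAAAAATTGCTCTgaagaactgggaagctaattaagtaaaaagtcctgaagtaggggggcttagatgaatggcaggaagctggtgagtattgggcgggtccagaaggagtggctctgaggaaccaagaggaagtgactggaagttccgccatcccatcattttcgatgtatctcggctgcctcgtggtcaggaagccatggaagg
Rex2: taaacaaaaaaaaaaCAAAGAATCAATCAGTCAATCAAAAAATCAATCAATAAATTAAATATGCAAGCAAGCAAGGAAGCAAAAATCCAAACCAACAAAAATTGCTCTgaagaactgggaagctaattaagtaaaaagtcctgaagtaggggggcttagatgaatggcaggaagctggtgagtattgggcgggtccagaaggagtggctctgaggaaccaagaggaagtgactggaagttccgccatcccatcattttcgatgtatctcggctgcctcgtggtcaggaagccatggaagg
Zfp979: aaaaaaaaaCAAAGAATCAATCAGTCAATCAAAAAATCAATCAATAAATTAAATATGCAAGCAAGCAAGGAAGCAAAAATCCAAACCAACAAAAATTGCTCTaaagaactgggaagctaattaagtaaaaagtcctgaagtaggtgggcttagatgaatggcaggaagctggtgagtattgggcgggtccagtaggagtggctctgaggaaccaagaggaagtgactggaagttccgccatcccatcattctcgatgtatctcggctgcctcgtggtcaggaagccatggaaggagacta
The Zfp600 and Rex2 windows were identical at 299 of 301 aligned columns (99.3%), although their starts are 865023 bp apart, and Zfp979 matched each of them at 290 of 306 columns (94.8%). The next window is from the cluster on chromosome 8, which held UTX peaks and no H3K27ac peak. It is 1 sequence of 300 bases, the same in 4930467E23Rik (chr8:19729326-19729625, plus strand), Gm15319 (chr8:20363153-20363452, minus strand) and Gm21119 (chr8:20614677-20614976, plus strand), with the bases from the transcript's start onwards in capitals. The nearest positions, all with UTX only, lie 13298, 6878 and 21309 bp from these windows, in that order.
4930467E23Rik, Gm15319 and Gm21119: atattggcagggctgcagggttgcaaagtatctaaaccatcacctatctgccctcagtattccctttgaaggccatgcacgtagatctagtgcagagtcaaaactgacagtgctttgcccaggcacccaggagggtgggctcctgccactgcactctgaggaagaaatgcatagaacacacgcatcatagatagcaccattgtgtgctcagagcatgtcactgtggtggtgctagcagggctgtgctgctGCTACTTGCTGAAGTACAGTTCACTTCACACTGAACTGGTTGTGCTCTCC
The last window belongs to Gm32584 (chr5:36661609-36661908, minus strand) and lies 334 bp from a position with both antibodies outside any cluster. Its capitals mark a word of 17 bases that stands 3 times.
Gm32584: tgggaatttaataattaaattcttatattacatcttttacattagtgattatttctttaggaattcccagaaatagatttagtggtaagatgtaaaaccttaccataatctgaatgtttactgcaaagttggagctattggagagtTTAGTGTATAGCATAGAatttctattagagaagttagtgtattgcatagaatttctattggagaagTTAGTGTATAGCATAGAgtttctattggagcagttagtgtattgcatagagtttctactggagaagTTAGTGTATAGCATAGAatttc
A word of at least that length standing 3 times was found in 195 of the 32851 promoter windows of the annotation (0.594%), and the median window has a longest such word of 6 bases.

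Most H3K27ac peaks of the Utx-deleted epidermis lay on UTX peaks, and most UTX peaks lay on none. Of the 225 positions, 33 held both antibodies (14.7%, Wilson 95% interval 10.6 to 19.9), 179 held UTX only (79.6%) and 13 held H3K27ac only (5.78%). Counted as peaks, 34 of 213 UTX peaks lay on H3K27ac (16%, 11.7 to 21.5) and 35 of 48 H3K27ac peaks lay on UTX (72.9%, 59 to 83.4). In control epidermis 4 of 547 UTX peaks lay on an H3K27ac peak (0.731%, 0.285 to 1.86), and 4 of 2140 H3K27ac peaks lay on UTX (0.187%, 0.0727 to 0.48). The intervals cover counting error only, and neighbouring peaks in a cluster are not independent of each other. The share of H3K27ac peaks on UTX is taken over a list of 48 in the Utx-deleted epidermis and over a list of 2140 in control epidermis. With 1 merged list per group the genotypes could not be tested against each other.

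Where the peaks overlapped, most of the shorter peak lay on the other one, a median of 99.2% of it. The 36 overlapping pairs shared 53 to 784 bp, with a median of 264 bp, and 33 of them shared at least 50% of the shorter peak. The centres lay a median of 57.25 bp apart, and in 23 of 36 pairs they lay within 100 bp. The UTX peak was the wider one in 28 pairs, and in 14 the H3K27ac peak lay wholly inside it. In the 23 pairs inside the dense regions described below, the overlap came to a median of 56.5% of the joint extent and the centres lay a median of 85 bp apart. In the 13 pairs outside them the overlap came to 91.4% of the joint extent and the centres lay 17.5 bp apart.

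**Figure D1:**
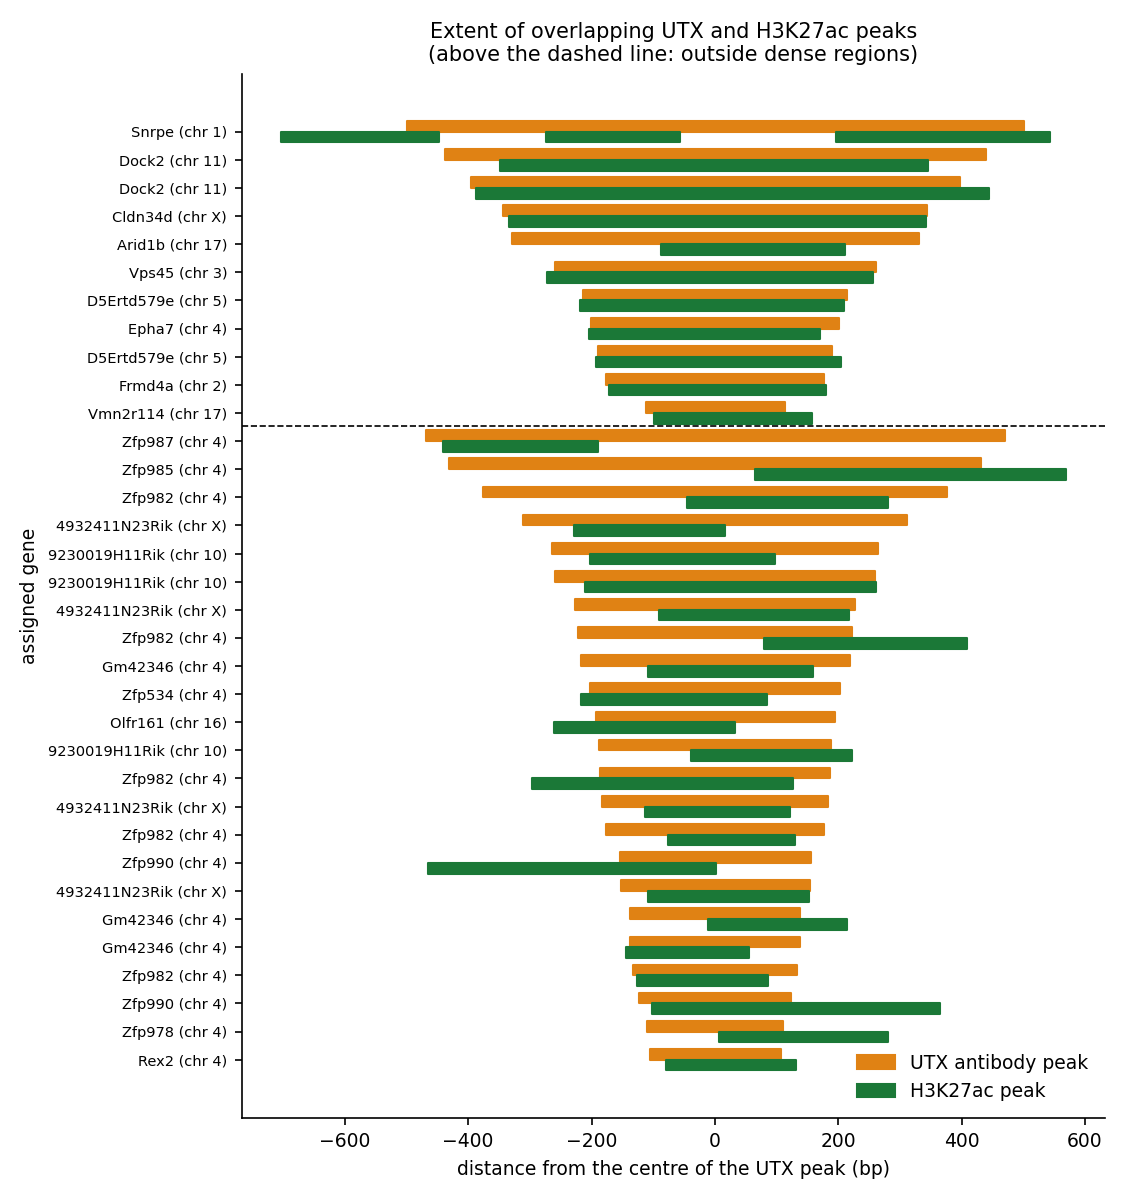
Extents of the UTX peaks (orange) and H3K27ac peaks (green) at the 33 positions with both antibodies, as distance in bp from the centre of the UTX peak, with the assigned gene and chromosome of each on the vertical axis and 1 row per UTX peak. Above the dashed line, outside the dense regions, the bars of most pairs begin and end nearly together, as at Cldn34d and Frmd4a, and below it the H3K27ac peak is often shorter or shifted.

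The positions were gathered in a few places. Joining positions with gaps of at most 1 Mb gave 6 dense regions of at least 5 positions, which held 125 of the 225 positions (55.6%). They held 22 of the 33 positions with both antibodies (66.7%), 96 of the 179 with UTX only (53.6%) and 7 of the 13 with H3K27ac only (53.8%). Counted as peaks, 119 UTX and 29 H3K27ac peaks lay inside the regions, and 94 UTX and 19 H3K27ac peaks lay outside. The regions were drawn from these peaks, so their density is a description. They held 0 peaks of the control UTX list and 0 of the control H3K27ac list.

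**Figure D2:**
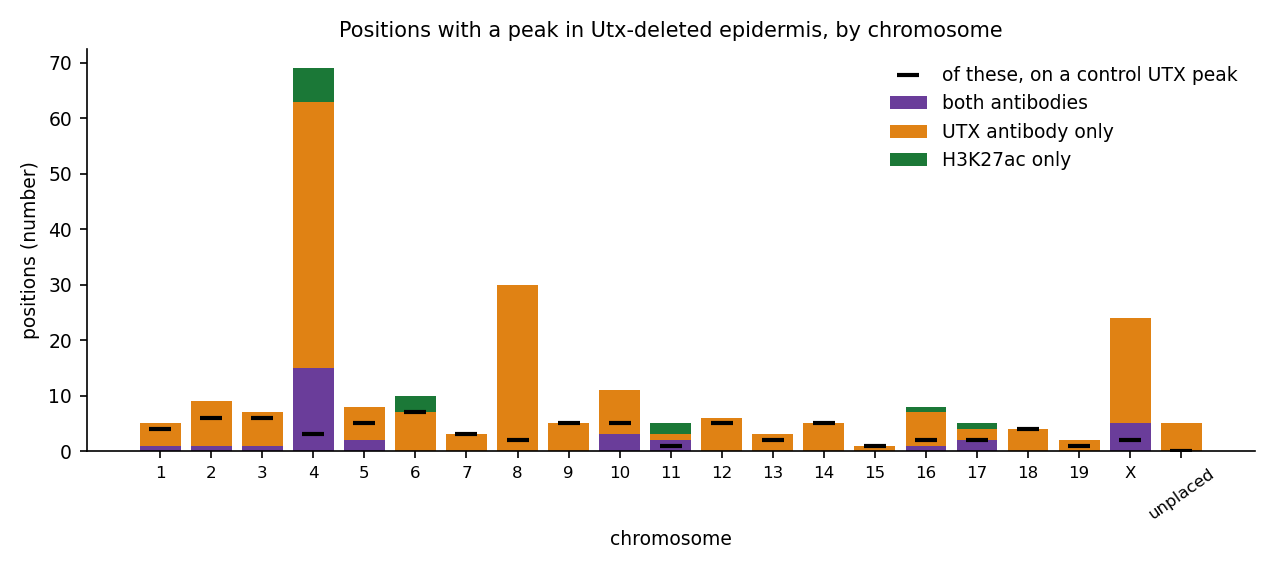
Number of positions on each chromosome in Utx-deleted epidermis, stacked as both antibodies (purple), UTX only (orange) and H3K27ac only (green), with a black bar at the number that lay on a control UTX peak. Chromosome 4 stands out with 69 positions, chromosome 8 with 30 and chromosome X with 24, while on chromosomes 7, 9, 14, 15 and 18 every position lay on a control UTX peak.

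The largest region, chr4:145407560-147778170, spanned 2.37 Mb and held 65 positions, 14 with both antibodies, 45 with UTX only and 6 with H3K27ac only. Its 79 annotated genes were 18 protein-coding genes, 15 of them named Zfp, 54 pseudogenes and 7 long non-coding RNA genes. Pseudogenes made up 68.4% of them, against 21.2% of the 49636 genes of the whole annotation. Of the 18 protein-coding genes 15 had a UTX peak inside and 7 an H3K27ac peak inside. Over the whole genome 0.519% of protein-coding genes were assigned a UTX peak and 0.129% an H3K27ac peak. These shares also count genes that are only the nearest to a peak. As the measures differ and the region was drawn from these peaks, nothing is read from the difference. In the region 12 of the 14 positions with both antibodies lay within a protein-coding gene, and so did 51 of all its 65 positions. Some neighbouring coding genes here overlap in the annotation, but no peak of the region was assigned to more than 1 of them. Promoter windows were at hand for 11 of its 16 coding genes named Zfp or Rex2. A gene with several starts could enter different pairs with different windows. All 136 pairs of the region's 17 genes with a window had a median identity of 52.3%. The 55 pairs among the 11 had a median of 75.5% (45.3% to 99.3%), and 3 pairs, those printed above, reached 90%. How reads from such copies were placed is not given in the sources used here, and its part in the peaks was not tested.

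Zfp982, a zinc finger gene, had 9 UTX and 6 H3K27ac peaks, the highest number of H3K27ac peaks of any gene, and 5 of its UTX peaks lay on H3K27ac. Of these, 4 lay in a stretch from 147507592 to 147512687, where a further H3K27ac peak of 491 bp lay 429 bp from the nearest UTX peak. Gm42346 had 7 UTX and 4 H3K27ac peaks, with 3 positions in common between 145439859 and 145447576. At Zfp990 an H3K27ac peak of 467 bp lay across 2 UTX peaks of 246 and 310 bp.

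Zfp987, Zfp985, Zfp534, Zfp978 and Rex2 had 1 position with both antibodies each, as had Zfp990. At Zfp987 a UTX peak of 939 bp, the widest in a dense region, covered an H3K27ac peak of 251 bp, and the position lay 40050 bp outside the gene. At Zfp985 the UTX peak was 862 bp and the H3K27ac peak 503 bp wide, and their joint extent began 173 bp beyond the gene. At Zfp534 a UTX peak of 406 bp and an H3K27ac peak of 301 bp lay inside the gene. Zfp978 had 6 UTX peaks and 1 H3K27ac peak, which overlapped by 104 bp at one of them. Rex2 had 3 UTX and 2 H3K27ac peaks, with 1 overlap. Zfp993 with 6 UTX peaks, Zfp979 with 5, Zfp980 with 4 and Zfp600 with 3 had 0 H3K27ac peaks.

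The region on chromosome 8, chr8:19691905-20636954, spanned 0.945 Mb and held 23 positions, all with UTX only. Of its 21 annotated genes 5 are protein-coding and 13 are pseudogenes (61.9%), and 10 of the 23 positions lay in a pseudogene. Gm15319 was assigned 11 UTX peaks, 4 of them inside the gene, and 4930467E23Rik was assigned 5, 3 of them inside. Inside Gm21119 lay the widest of all UTX-only peaks, of 670 bp. These 3 genes share the window printed above base for base, which is not typical of the region. The 21 pairs of its 7 genes with a window had a median identity of 49.9%. Only the 3 pairs among these 3 genes reached 80%.

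The region on chromosome X, chrX:126690996-126778032, spanned 87 kb without any annotated gene and held 20 positions, 4 with both antibodies and 16 with UTX only. The nearest protein-coding gene, 4932411N23Rik, began 34430 bp beyond its end. The 4 UTX peaks with H3K27ac were 623, 367, 453 and 306 bp wide, and in each of them the H3K27ac peak lay wholly inside. Outside this region 4 positions remained on the chromosome.

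The remaining regions were short. On chromosome 10 a stretch of 7.12 kb, from 3110027 to 3117143, held 6 positions, 3 with both antibodies and 3 with UTX only. They lay between 2698 and 9589 bp from 9230019H11Rik, and the first annotated gene of the chromosome starts at 3103992, close by. On chromosome 16 a stretch of 93.8 kb, from 3244636 to 3338456, held 1 position with both antibodies, 4 with UTX only and 1 with H3K27ac only. It held 2 pseudogenes and no protein-coding gene, and the nearest one, the olfactory receptor gene Olfr161, lay over 250 kb away. The unplaced sequence GL456367 held 5 positions with UTX only within 12.2 kb and 0 with H3K27ac.

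**Figure D3:**
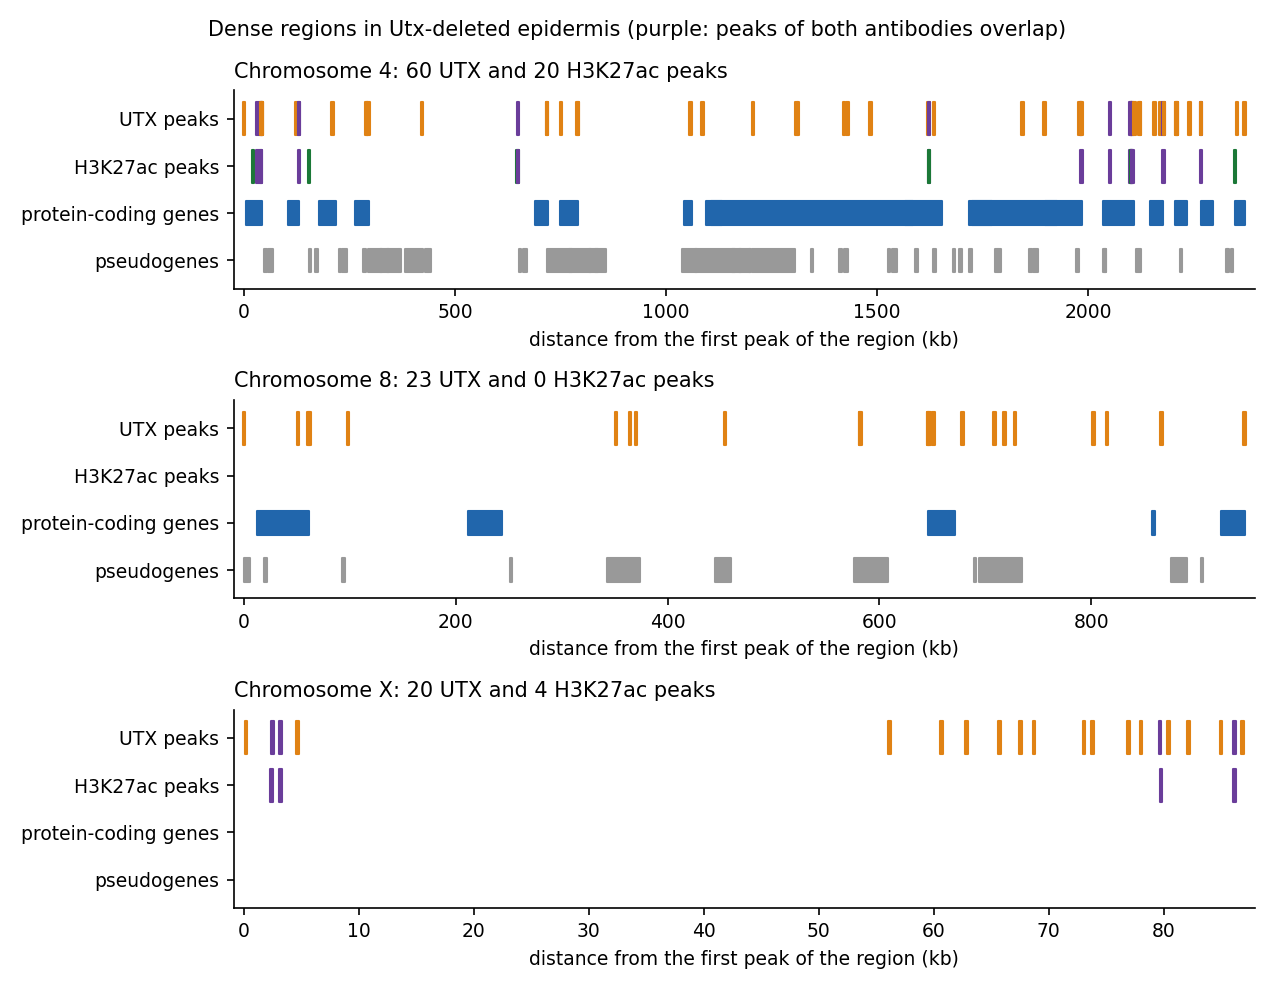
Peaks and annotated genes along the dense regions of chromosomes 4, 8 and X, as distance in kb from the first peak, with UTX peaks in orange, H3K27ac peaks in green and overlapping peaks in purple. On chromosome 4 the 60 UTX and 20 H3K27ac peaks run through a field of coding genes and pseudogenes, on chromosome 8 there are 23 UTX and 0 H3K27ac peaks, and on chromosome X 20 UTX and 4 H3K27ac peaks lie where no gene is annotated.

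Outside the dense regions lay 11 positions with both antibodies, 7 of them inside protein-coding genes, 2 in long non-coding RNA genes and 2 between genes. Dock2, which encodes an activator of the GTPase Rac in leukocytes, held 2. Its UTX peaks were 877 and 793 bp wide and its H3K27ac peaks 695 and 831 bp, with the centres 2 and 28 bp apart. Cldn34d, a claudin gene on chromosome X, held peaks of 687 bp (UTX) and 677 bp (H3K27ac) that shared 98.5% of their joint extent. Vps45, a gene of vesicle fusion, held peaks of 521 bp (UTX) and 529 bp (H3K27ac) that shared 97%.

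Near Snrpe, which encodes a core protein of the spliceosomal snRNPs, the widest UTX peak of the list, of 1000 bp, overlapped 3 separate H3K27ac peaks of 257, 217 and 347 bp. It lay 7843 bp outside the gene. Near Frmd4a, a gene of cell polarity, the peaks were 354 bp (UTX) and 351 bp (H3K27ac) and lay 52913 bp outside. D5Ertd579e and Gm32584, which overlap each other on chromosome 5, held 2 positions, with peaks of 429 bp (UTX) and 427 bp (H3K27ac) at one. The other, beside the window printed above, held peaks of 379 bp (UTX) and 397 bp (H3K27ac). Vmn2r114, a vomeronasal receptor gene, held peaks of 225 bp (UTX) and 256 bp (H3K27ac). A position in the long non-coding RNA gene Gm52725, 635879 bp from the ephrin receptor gene Epha7, held peaks of 402 bp (UTX) and 375 bp (H3K27ac).

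One position had a peak in all 4 lists of the series. It lies at chr17:4626047-4626706 in the long non-coding RNA gene Gm34259, with a UTX peak of 660 bp around an H3K27ac peak of 299 bp. The nearest protein-coding gene is Arid1b, a subunit of the BAF chromatin remodelling complex, 367591 bp away.

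The UTX antibody also gave peaks in control epidermis, and this list was not used to form the classes. Of the 213 UTX peaks 71 lay on a control UTX peak (33.3%, 27.3 to 39.9). Of those 71, 2 lay on H3K27ac (2.82%, 0.776 to 9.7), the one in Gm34259 and the one in Vps45. Of the 142 that lay on no control UTX peak, 32 lay on H3K27ac (22.5%, 16.4 to 30.1). Seen from the classes, 2 of 34 UTX peaks with H3K27ac lay on a control UTX peak (5.88%), and 69 of 179 without H3K27ac did (38.5%). As the dense regions held 0 control UTX peaks, all of the 71 lay outside them by construction. Outside the dense regions 9 of the 23 UTX positions on no control UTX peak held both antibodies (39.1%, 22.2 to 59.2), and so did 2 of the 71 on one. The control H3K27ac list was met by 2 UTX peaks, in Gm34259 and in Dpp9, a gene for a dipeptidyl peptidase, and by 1 of the 48 H3K27ac peaks.

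The 179 UTX-only positions thus fell into 3 groups. In the dense regions, which held no control UTX peak, lay 96. Outside them lay 83, of which 69 were on a control UTX peak (83.1%) and 14 were not. The 69 were scattered, and among the wider ones were a peak of 510 bp inside Ano2, which encodes a calcium-activated chloride channel, and one of 430 bp that lay 16636 bp outside Alox5ap, a gene of leukotriene synthesis. A peak of 416 bp overlapped Rn7s1 and the ribosomal protein gene Rps29, and one of 284 bp lay in Rn7s2. Rn7s1 and Rn7s2 are genes of the 7S RNA of the signal recognition particle. One peak, at chr6:69516197-69516548, lay in the immunoglobulin kappa locus.

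The 14 peaks that were outside the dense regions, off H3K27ac and off every control UTX peak were 199 to 380 bp wide. Zfp868 on chromosome 8 was the nearest coding gene to 4, and 3 of these lay in the pseudogene Gm3365. Others lay inside Slc30a4, a zinc transporter gene (380 bp), Cenpo, a centromere protein gene (278 bp), the cytochrome P450 gene Cyp2c69 (238 bp) and the vomeronasal receptor gene Vmn2r117 (233 bp). Vmn2r117 belongs to the same gene family as Vmn2r114, which held both antibodies. Over the whole set, 26 of 179 UTX-only positions lay in a pseudogene (14.5%). Of those with both antibodies 0 of 33 did, which allows a share of up to 9.09%, and of those with H3K27ac only 0 of 13 did. The limit takes neighbouring positions in a cluster as independent. Of the 26, 12 lay in the chromosome 4 region and 10 in the chromosome 8 region, which held no H3K27ac peak. Whether the classes differ apart from their place was not tested.

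The 13 H3K27ac-only positions were of 2 kinds, inside and outside the dense regions. These regions were drawn with gaps of at most 1 Mb from positions that mostly held UTX. The distances to UTX peaks therefore follow in part from that rule. In the dense regions 7 lay within 25 kb of a UTX peak, 4 of them within 1 kb, at 180 bp on chromosome 16 and at 429, 500 and 579 bp near Zfp982, Rex2 and Zfp987. The other 6 lay over 1 Mb from any UTX peak. The widest, of 616 bp, lay inside Gm40363 on chromosome 6, and another of 245 bp lay on the same chromosome, 23178 bp outside Pdia4, which encodes a disulfide isomerase of the endoplasmic reticulum. A peak of 377 bp on chromosome 17 had as its nearest protein-coding gene the secreted peptide gene Esp38, 106571 bp away. Another lay in the long non-coding RNA gene Gm36876, 60978 bp from the Wnt pathway inhibitor gene Axin2. The rest lay near Cd300ld, an immune receptor gene (301 bp), and near the potassium channel gene Kcnd2 (261 bp). The pseudogene Rn18s-rs5 lay 2405 bp from the peak of 377 bp, and the long non-coding RNA gene AY036118 lay 4163 bp from it. The Y RNA gene Rny3 lay 8661 bp from the peak of 245 bp.

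The lists give no height, and width was the one value per peak. UTX peaks with H3K27ac had a median width of 404 bp (212 to 1000, n = 34), against 279 bp for UTX-only peaks (199 to 670, n = 179). Among UTX-only peaks the median was 343 bp for the 69 on a control UTX peak and 248.5 bp for the 110 on none. H3K27ac peaks with UTX had a median of 299 bp (199 to 831, n = 35), and H3K27ac-only peaks 245 bp (199 to 616, n = 13). The ranges overlap in every pair of classes. A wider peak overlaps another more easily, and what width adds to these differences was not tested.

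**Figure D4:**
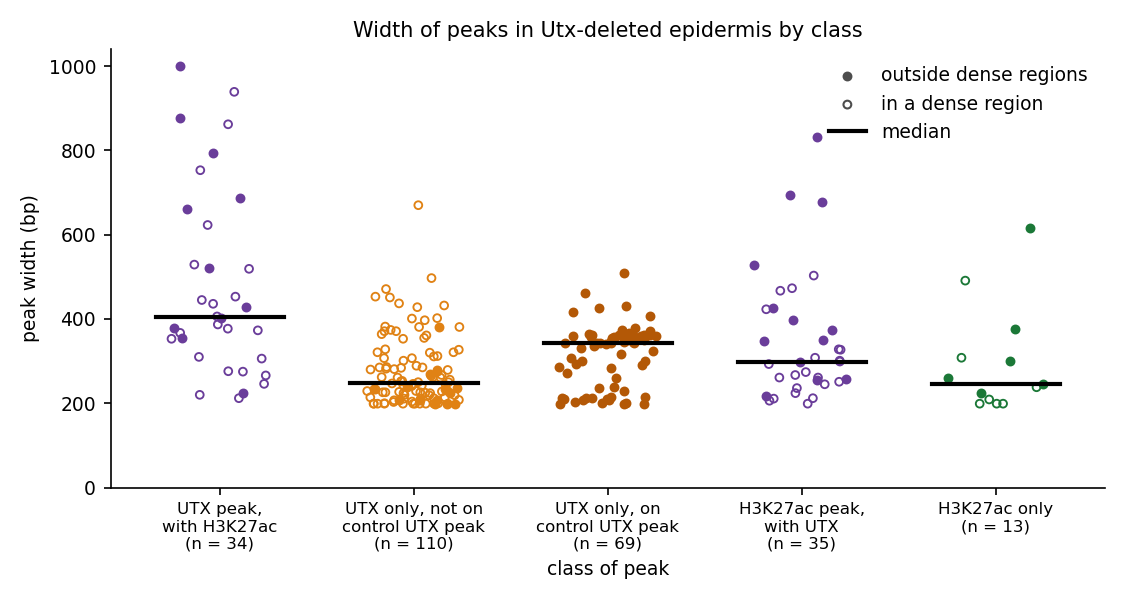
Width in bp of each peak by class, with open circles for peaks in a dense region, filled circles for peaks outside and a black line at the median. The UTX peaks with H3K27ac reach from 212 to 1000 bp around a median of 404 bp, and the UTX-only peaks on no control UTX peak gather near the lower limit of 199 bp.

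Few peaks lay near a start or an end of a coding gene. At most 1 kb from either end of a coding gene lay 18 of 213 UTX peaks (8.45%, 5.41 to 13) and 7 of 48 H3K27ac peaks (14.6%, 7.25 to 27.2). Of the others, 85 UTX and 18 H3K27ac peaks lay inside coding genes, and 5 UTX peaks were on unplaced sequence. Between coding genes, where pseudogenes and long non-coding RNA genes can lie, were 105 UTX and 23 H3K27ac peaks. Of the 34 UTX peaks with H3K27ac 6 lay near an end of a coding gene, 15 others inside a coding gene and 13 between coding genes. The promoter windows held 0 of the 213 UTX peaks and 0 of the 48 H3K27ac peaks, which allows a share of up to 1.41% for UTX and 6.25% for H3K27ac. In control epidermis they held 1 of 547 UTX peaks (0.183%) and 243 of 2140 H3K27ac peaks (11.4%, 10.1 to 12.8).

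By gene, a UTX peak was assigned to 113 of the 21788 protein-coding genes (0.519%) and an H3K27ac peak to 28 (0.129%), counting the gene a peak lies in or else the nearest. Of these, 22 genes had both, and at 21 the peaks overlapped. At least 3 UTX peaks were assigned to 19 genes, 18 of them by peaks in dense regions, and 10 of the 19 also had H3K27ac on a UTX peak. Of 143 annotated genes of H3K27 and COMPASS-like regulators, AP-1 factors, basal keratinocytes, the cornified envelope, barrier lipids and epidermal transcription factors, 1 was assigned a peak of either antibody, Arid1b, by the distant position described above. Of 26 marker genes of basal and differentiated keratinocytes, immune cells, fibroblasts, melanocytes and endothelium, among them Krt14, Krt10, Ptprc and Pmel, 0 were assigned a UTX peak and 0 an H3K27ac peak. With 0.519% and 0.129% of all coding genes assigned a peak, gene sets this small can be without one whatever their genes. Nothing is read from these counts about the genes, and the labelled tissue could not be read from these lists.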

How the data were processed

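The authors deposited 4 lists of positions, 1 per antibody and genotype, each line giving the chromosome and both limits of a peak. The merged libraries of a group went into 1 call by MACS2, per the file headers. The values are coordinates and hold no depth, height or q. Other tools (FastQC, Bowtie2, deepTools, bedtools) and the builds GRCm38 and GRCm39 appear, without versions of the tools, per the submitters' processing notes. On GRCm38 promoter windows, 11.4% of control H3K27ac peaks overlapped a window, against 1.31% and 1.59% when moved by 10 kb down and up, and GRCm38 was used, with 1-based positions.

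From the deposited positions, overlaps of at least 1 bp, merged positions, dense regions, widths and assigned genes were computed. Groups follow the sample labels. The gene annotation was RefSeq GRCm38.p6, without 340 entries on other scaffolds, and gives gene starts and ends without exons. Intervals are Wilson 95% intervals, and 3 counts set the limit for a count of 0. With 1 merged list per group no test was possible, and shares are descriptions. The procedure for overlaps was tested on simulated lists with known overlaps. Promoter windows were aligned end to end with Biopython 1.88, with matplotlib 3.10.9, scipy 1.17.1, pandas 2.3.3 and numpy 2.4.6 under Python 3.11.15 for the rest. Named genes are those of every position with both antibodies or H3K27ac only, of the widest UTX-only peaks, of at least 3 UTX peaks and of the gene lists with a peak, and others were named after their values were seen. Some genes that this rule names are not reported here. The members, lists and regions were chosen with earlier results of these data known. Alternatives were other overlap rules, wider peaks only, merged peaks, chromosomes 1 to 19, other limits for dense regions and gene ends, and leaving out the dense regions.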

Additional observations from a re-analysis of the deposited data

How the results depend on the processing

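Of 41 alternative values over 15 results, 33 stayed close to the reported value and 8 moved. Close means within 1.5 times of a count or median width, or within the interval of a share. Some of the 33 could not move. The UTX peaks on a control UTX peak, 2 with H3K27ac and 69 without, stayed the same without the dense regions because these held no control UTX peak. The interval for H3K27ac peaks near a gene end, 7.25 to 27.2%, is wide, so staying within it says little. With the peaks wider than the median of their list only, 19 UTX peaks lay on H3K27ac and 19 H3K27ac peaks on UTX, against 34 and 35 in all, where the smaller lists lower the counts by construction. Without the dense regions 11 UTX peaks lay on H3K27ac and 13 H3K27ac peaks on UTX. Without the dense region of chromosome 4 alone, a setting chosen after seeing the data, 19 UTX and 21 H3K27ac peaks did. Leaving out regions shortens the lists, which lowers these counts by construction. As shares, 11 of the 94 UTX peaks outside the dense regions lay on H3K27ac (11.7%, 6.66 to 19.8), against 16% in all, and 13 of the 19 H3K27ac peaks lay on UTX (68.4%, 46 to 84.6), against 72.9% in all. The share of UTX peaks near a gene end was 15.5% within 3 kb and 4.26% without the dense regions, against 8.45%. The positions with both antibodies numbered 28 and 25 when joined within 1 kb and 10 kb, against 33. No paired analysis was possible because the libraries of a group were merged before peak calling. For the same reason libraries could not be left out one at a time, and a stricter q was not tried, since the lists hold none. Unknown depth limits every count, and a position without a peak may hold signal below the authors' threshold.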
